A study of Mus musculus with 22 samples.

Results

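The genes described here encode the calcium-regulated thin filament of heart muscle: Tnni1 and Tnni3 (slow skeletal and cardiac troponin I), Tnnt1 and Tnnt2 (slow skeletal and cardiac troponin T), Tnnc1 (troponin C of heart and slow muscle), Tpm1 (alpha tropomyosin) and Actc1 (cardiac alpha actin). They were taken by gene symbol from the platform annotation, and each of the 7 genes had 1 named probe set among the 22206 gene probe sets of a mouse Clariom S array. All 7 were among the 21092 probe sets whose mean log2 intensity over all arrays was above 4, which were the ones tested. RNA was from whole hearts of male C57/BL6NCr mice aged 3 to 6 months, kept singly at 30 °C, with 1 array for each of 22 hearts. The mice were wild type or heterozygous for the R384C mutation of thyroid hormone receptor TRα1 (TRα1+m), not restricted to the heart muscle cells, which lowers the affinity of the receptor for the hormone T3. Both genotypes drank for 12 days either tap water with 0.01% bovine serum albumin or the same with T3 at 0.5 mg/L, which gave 6 wild-type hearts on water, 6 wild-type hearts on T3, 5 TRα1+m hearts on water and 5 TRα1+m hearts on T3. The comparisons asked how the hearts of the mutants differ from those of wild-type mice and what T3 changes in each genotype.

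In striated muscle, calcium binds troponin C, troponin I then releases its hold on actin, and troponin T carries the change to tropomyosin, which moves on the actin filament so that myosin can bind. The fetal heart makes slow skeletal troponin I, which is replaced after birth by the cardiac form, and thyroid hormone is known to advance this switch in rodents. Cardiac troponin I can be phosphorylated after adrenergic stimulation through an extension that the slow skeletal form lacks.

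Upstream sequences are printed for the 4 genes on which the results turn, because these genes differed in how they moved between groups. Each is the 250 bases before the annotated start in the RefSeq promoter table (GRCm38.p6), 5′ to 3′ on the strand of the gene, with capitals for the motifs that were found: Tnni1 at chr1:135799171-135799420 (plus strand), Tnni3 at chr7:4522529-4522778 (minus strand), Tnnt2 at chr1:135836084-135836333 (plus strand) and Actc1 at chr2:114052876-114053125 (minus strand).
Tnni1: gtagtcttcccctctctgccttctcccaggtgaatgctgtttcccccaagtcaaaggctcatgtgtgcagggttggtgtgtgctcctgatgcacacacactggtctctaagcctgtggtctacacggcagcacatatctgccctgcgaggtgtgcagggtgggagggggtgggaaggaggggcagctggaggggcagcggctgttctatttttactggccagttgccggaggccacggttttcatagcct
Tnni3: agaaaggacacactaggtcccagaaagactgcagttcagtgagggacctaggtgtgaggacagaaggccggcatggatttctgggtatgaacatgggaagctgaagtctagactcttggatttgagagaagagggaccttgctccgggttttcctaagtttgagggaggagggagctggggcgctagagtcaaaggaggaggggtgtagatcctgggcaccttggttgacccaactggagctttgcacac
Tnnt2: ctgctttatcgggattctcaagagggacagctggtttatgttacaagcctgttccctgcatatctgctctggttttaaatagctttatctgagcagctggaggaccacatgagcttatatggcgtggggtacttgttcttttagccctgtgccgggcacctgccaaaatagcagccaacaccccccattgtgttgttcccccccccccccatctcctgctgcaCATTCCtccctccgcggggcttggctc
Actc1: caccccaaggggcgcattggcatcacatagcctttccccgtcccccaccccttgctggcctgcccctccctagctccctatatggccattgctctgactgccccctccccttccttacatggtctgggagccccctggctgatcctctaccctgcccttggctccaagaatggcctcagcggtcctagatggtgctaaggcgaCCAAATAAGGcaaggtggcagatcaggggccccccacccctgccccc

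Both strands of these windows were searched for 5 motifs. The thyroid hormone receptor hexamer AGGTCA was in none of the 7 windows and in 13.8% of 27025 promoters of the same length, and the MEF2 motif was in none of the 7 and in 3.01% of all. The TEAD motif CATTCC was in 3 of the 7 windows, those of Tnnt2, Tnnc1 and Tpm1, with its first base 27, 58 and 56 bases before the start, and in 12.6% of all promoters. The CArG box was in the window of Actc1, 47 bases before the start, and in 1.4% of all, while TATAAA was in that of Tnnt1, 30 bases before the start, and in 13.0% of all. A match is a run of letters and not a bound site, and a window without one says nothing about the rest of the gene.

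In the RefSeq annotation, Tnni1 and Tnnt2 lie on chromosome 1 with 1 coding gene (Lad1) between them, and Tnnt1 and Tnni3 are direct neighbours on chromosome 7. In neither pair was the set of tests passed the same for both genes.

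The arrays hold a technical limit that touches every comparison between genotypes. The median of the tested probe sets was higher in TRα1+m by 0.36 log2 units on water and by 0.35 on T3, and the median of the negative control probe sets was higher by 0.38 and 0.31. Among the 121 gene probe sets with a mean above 17, where 5 of the 7 genes lie, the median genotype difference was instead -0.08 on water and -0.06 on T3, and no deposited value was above 19.93, so that differences of the brightest genes may be compressed. Comparisons between genotypes are therefore given on the deposited values and after quantile normalization, and the plot of 4 scalings shows both beside centring on the gene median and on the negative controls. T3 moved the median of all tested probe sets by 0.01 in wild type and -0.02 in TRα1+m. Thra, which encodes the mutated receptor, was higher in TRα1+m on water by 1.55 ± 0.13 (SE, adjusted p = 1.0e-08). The 10 cardiomyocyte genes had a mean level between 16.11 and 16.54 on all arrays, with 9 of the 10 above the 95th percentile of the negative controls. On water this list mean ran from 16.32 to 16.54 for wild-type hearts and lower, from 16.18 to 16.22, for mutant hearts, without overlap. With T3 the ranges were 16.29 to 16.45 for wild-type hearts and 16.11 to 16.30 for mutant hearts, which overlapped. The list did not move as one on water. Ckmt2 (16.21 in wild type, 15.45 in TRα1+m), Ryr2 (15.655 and 14.92) and Myh6 (18.87 and 18.20) were lower by most. Nkx2-5 (7.52 and 8.305) and Pln (19.13 and 19.19) were higher in TRα1+m. The part of this list in the genotype differences of the 7 genes was not tested. Of 12 fast skeletal muscle genes, 9 or 10 were below the median negative control in each group.

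Tpm1, Tnnt2 and Actc1 were among the brightest genes of the heart, at ranks 12, 17 and 22 of the 21092 tested, followed by Tnni3 at 58 and Tnnc1 at 76. Tnnt1 ranked 4760 and was above 90.9% or more of the negative controls on every array, and Tnni1 ranked 17382. Intensities depend on the probes, so these ranks do not order the amounts of RNA. The array reads each gene as 1 value, so splice forms, of which Tpm1 and Tnnt2 have several, were not separated.

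**Figure D1:**
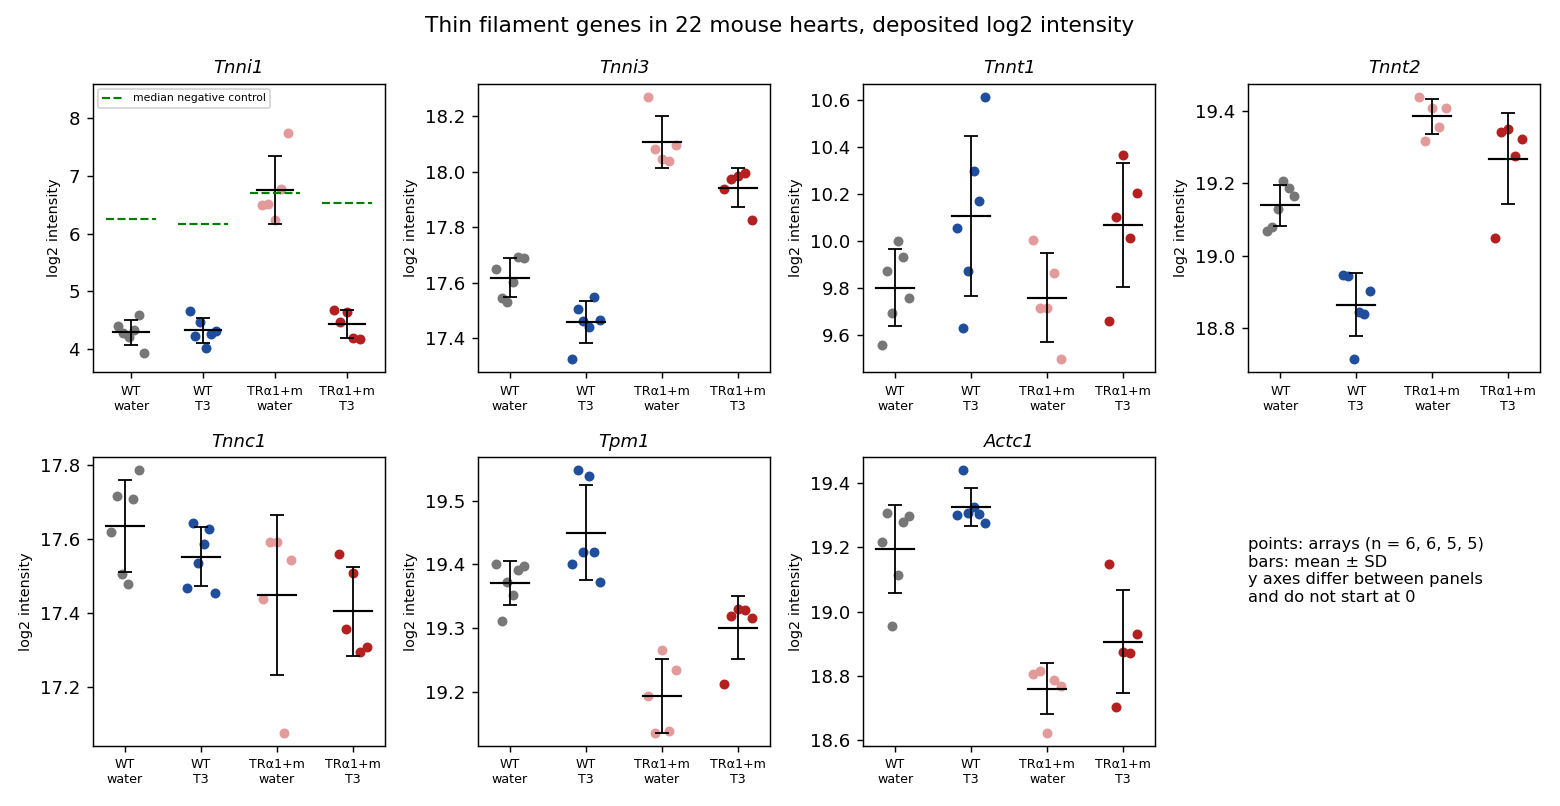
Deposited log2 intensity of the 7 genes in each heart, by group, with the mean and SD as bars and, for Tnni1, the median negative control of each group as dashed lines. Tnni1 stands at 6.24 to 7.75 in TRα1+m hearts on water and at or below 4.68 elsewhere.

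The Tnni1 signal was high in 1 group, the TRα1+m hearts on water. In that group the log2 intensities were 6.498, 6.52, 6.24, 6.78 and 7.75 (mean 6.76 ± 0.59, SD, n = 5). On T3 the TRα1+m hearts had 4.68, 4.47, 4.64, 4.19 and 4.18 (4.43 ± 0.24, n = 5). Every TRα1+m heart on water was above every TRα1+m heart on T3, with replicate 5 on water the highest. Wild-type hearts ran from 3.93 over a median of 4.30 to 4.59 on water (4.29 ± 0.22, n = 6) and from 4.02 over 4.29 to 4.66 on T3 (4.32 ± 0.22, n = 6). These 2 wild-type groups overlapped with each other and with TRα1+m on T3.

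With T3 the Tnni1 signal in TRα1+m changed by -2.32 ± 0.20 log2 units (SE, limma, adjusted p = 1.6e-08 over all tested probe sets), and by -2.24 after quantile normalization. In wild type the T3 difference was 0.04 ± 0.19 (95% confidence interval -0.35 to 0.42, adjusted p = 0.945). The T3 effect differed between genotypes by -2.36 ± 0.28 (interaction term, adjusted p = 1.8e-04), a test that 0.275% of probe sets passed and that the other 6 genes did not. On water, Tnni1 was higher in TRα1+m than in wild type by 2.47 ± 0.20 (adjusted p = 3.4e-09), and by 2.003 after quantile normalization (adjusted p = 1.6e-07). On T3 the genotype difference was 0.11 ± 0.20 (adjusted p = 0.66) on deposited values and -0.27 ± 0.20 (adjusted p = 0.324) after quantile normalization.

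The Tnni1 signal was not shown to exceed background in any group. It was above 40.1 to 71.9% of the negative controls in TRα1+m hearts on water, 7.8 to 13.9% in TRα1+m on T3, 7.6 to 17.2% in wild type on water and 8.9 to 18.4% in wild type on T3. Wild-type hearts were near the low end of the negative controls, so no fold is given and the interaction is one of measured signal. Of the 4991 negative controls with a mean above 4, 8 (0.16%) had a T3 difference in TRα1+m as large as that of Tnni1 and in the same direction. The same held for 30 (0.601%) with the genotype difference on water and 11 (0.22%) with the interaction. Controls that moved the other way were not counted, and they reached 2.79, -2.77 and 5.24 in these 3 comparisons. Myogenic and embryonic skeletal muscle genes had 5 of 6 members below the median negative control in each group, with list means of 4.92 to 5.25 in TRα1+m on water, 4.78 to 5.06 in TRα1+m on T3, 4.15 to 4.83 in wild type on water and 4.42 to 4.67 in wild type on T3. After quantile normalization the mean of this list was 4.83 in TRα1+m and 4.77 in wild type on water. Atrial genes had list means of 13.61 to 15.66 in TRα1+m on water and 14.44 to 15.86 in TRα1+m on T3. In wild type these were 15.06 to 16.01 on water and 15.14 to 15.53 on T3. Among them Bmp10 differed most between genotypes on water, at 14.28 in wild type and 10.41 in TRα1+m. Myl4 (16.64 and 16.39), Myl7 (15.06 and 14.89), Sln (15.44 and 15.19), Nppa (19.34 and 19.07) and Stard10 (12.28 and 12.02) differed by far less. The part of the atrial genes in the Tnni1 difference was not tested. In whole hearts fewer cells of a type and less RNA per cell cannot be told apart.

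Over the 22 arrays, after quantile normalization and with each gene centred, the 3 genes with the smallest root mean square gap to Tnni1 among 17665 candidates were Rtl3 (0.489), Nr4a1 (0.498) and Gprasp2 (0.514). Nr4a1, an orphan nuclear receptor induced early after many stimuli, had quantile-normalized group means of 6.79 in wild type on water, 6.48 in wild type on T3, 8.72 in TRα1+m on water and 6.36 in TRα1+m on T3. Rtl3, a gene derived from a retrotransposon, had 4.82, 4.51, 6.43 and 4.88 in the same order. Both were thus high in the same group as Tnni1, at different levels.

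Tnni3, the adult cardiac inhibitor subunit, was brighter in TRα1+m than in wild type with either drink on deposited and quantile-normalized values, but not with arrays centred on the gene median. On water the TRα1+m hearts had 18.27, 18.08, 18.05, 18.04 and 18.10 (18.11 ± 0.10, n = 5), and wild type ran from 17.53 over 17.63 to 17.69 (17.62 ± 0.07, n = 6). On T3 the TRα1+m hearts had 17.94, 17.97, 17.99, 17.997 and 17.83 (17.94 ± 0.07), and wild type ran from 17.33 over 17.46 to 17.55 (17.46 ± 0.08). The lowest TRα1+m heart was above the highest wild-type heart in both settings. The difference was 0.49 ± 0.08 on water (adjusted p = 5.6e-05) and 0.49 ± 0.08 on T3 (adjusted p = 7.3e-05), or 0.48 and 0.44 after quantile normalization, whereas with arrays centred on the gene median it was -0.01 in both, and centred on negative controls it was 0.03 and 0.10, not past the test. The T3 difference of Tnni3 was -0.16 ± 0.08 in wild type (adjusted p = 0.237) and -0.16 ± 0.09 in TRα1+m (adjusted p = 0.26), neither of which passed the test, although the TRα1+m groups did not overlap.

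Tnnt2, the cardiac tropomyosin-binding subunit, was the 1 gene of the 7 that passed the test for T3 in wild type, where 12.7% of all probe sets passed. Wild-type hearts ran from 19.07 over 19.15 to 19.21 on water (19.14 ± 0.06) and from 18.71 over 18.87 to 18.95 on T3 (18.86 ± 0.09), with no overlap. The difference was -0.27 ± 0.08 (adjusted p = 0.0273) and -0.28 after quantile normalization. This call was lost when wild-type water replicate 4 (-0.26, adjusted p = 0.0584) or 5 (-0.27, adjusted p = 0.0531), or wild-type T3 replicate 3 (-0.24, adjusted p = 0.0723), 4 (-0.27, adjusted p = 0.0513) or 5 (-0.27, adjusted p = 0.0506) was left out. It was also lost when only the wild-type groups were fitted (adjusted p = 0.0791) and with arrays centred on negative controls (-0.19, adjusted p = 0.159). In TRα1+m the hearts had 19.44, 19.32, 19.41, 19.36 and 19.41 on water and 19.05, 19.34, 19.35, 19.28 and 19.32 on T3. These groups overlapped, and the difference was -0.12 ± 0.09 (adjusted p = 0.48). The 2 T3 differences were not shown to differ (interaction 0.16 ± 0.12, adjusted p = 0.843).

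Between genotypes, Tnnt2 was brighter in TRα1+m by 0.25 ± 0.09 on water (adjusted p = 0.0189) and by 0.40 ± 0.09 on T3 (adjusted p = 5.4e-04), or by 0.36 and 0.54 after quantile normalization. With arrays centred on the gene median it was called lower on water (-0.25, adjusted p = 0.0414) and had -0.09 on T3 (adjusted p = 0.475). Centring on negative controls gave -0.21 (adjusted p = 0.0559) and 0.02 (adjusted p = 0.857). The direction for Tnnt2 thus depended on the scaling. On deposited values Actc1 differed the other way from Tnnt2. Its TRα1+m hearts had 18.81, 18.82, 18.62, 18.79 and 18.77 on water (18.76 ± 0.08), all below the wild-type hearts, which ran from 18.96 over 19.25 to 19.31 (19.20 ± 0.14). On T3 the TRα1+m hearts had 19.15, 18.70, 18.88, 18.87 and 18.93 (18.91 ± 0.16) and wild type ran from 19.28 over 19.31 to 19.44 (19.33 ± 0.06), again without overlap. Actc1 was lower in TRα1+m by 0.44 on water (-0.44 ± 0.10, adjusted p = 6.4e-04) and by 0.42 on T3 (-0.42 ± 0.10, adjusted p = 0.00102). After quantile normalization these were -0.22 (adjusted p = 0.0924, past no threshold) and -0.31 (adjusted p = 0.0221), and centring kept the sign. With T3, Actc1 differed by 0.13 ± 0.09 in wild type and 0.15 ± 0.10 in TRα1+m, neither past the test.

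The opposite genotype differences of Tnnt2 and Actc1 can be read within an array, where a shift of the whole array cancels. Tnnt2 minus Actc1, a pair chosen after its values were seen and so given without a test, was -0.06 ± 0.15 (SD; -0.23 to 0.17) in wild type on water, -0.46 ± 0.09 (-0.59 to -0.35) in wild type on T3, 0.63 ± 0.11 (0.50 to 0.79) in TRα1+m on water and 0.36 ± 0.28 (-0.10 to 0.64) in TRα1+m on T3. Both genes are near the top of the scale, and the values change with the drink as well as with the genotype.

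Tnnt1, Tnnc1 and Tpm1 passed no test for T3 or for genotype within 1 drink on deposited or quantile-normalized values, but all 3 were called lower in TRα1+m with both drinks when arrays were centred on the gene median or on negative controls. Tnnt1, the slow skeletal troponin T, was at 9.80 ± 0.16 in wild type on water and 10.11 ± 0.34 on T3, a difference of 0.30 ± 0.15 (adjusted p = 0.207), and at 9.76 ± 0.19 and 10.07 ± 0.26 in TRα1+m, a difference of 0.31 ± 0.16 (adjusted p = 0.232). Tnnc1, the calcium sensor, had untreated and treated means of 17.63 ± 0.12 and 17.55 ± 0.08 for wild-type hearts, and of 17.45 ± 0.22 and 17.41 ± 0.12 for TRα1+m hearts. Tpm1 had 19.37 ± 0.03 and 19.45 ± 0.07 in wild type and 19.19 ± 0.06 and 19.30 ± 0.05 in TRα1+m. Its genotype groups did not overlap on water or on T3, with differences of -0.18 ± 0.08 (adjusted p = 0.063) and -0.15 ± 0.08 (adjusted p = 0.122), and after quantile normalization these were 0.01 and -0.03. With gene-median centring Tpm1 had -0.68 (adjusted p = 3.3e-06) on water and -0.65 (adjusted p = 7.6e-06) on T3, and with centring on negative controls -0.64 and -0.53. On water its deposited difference passed with a mean above 6 required (adjusted p = 0.0358), a two-stage adjustment (0.0304), trended and robust variances (0.00137) and no moderation (3.5e-04), and on T3 with the last 2 of these. With gene-median centring Tnnt1 had -0.54 on water and -0.53 on T3, and Tnnc1 -0.68 and -0.64.

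**Figure D2:**
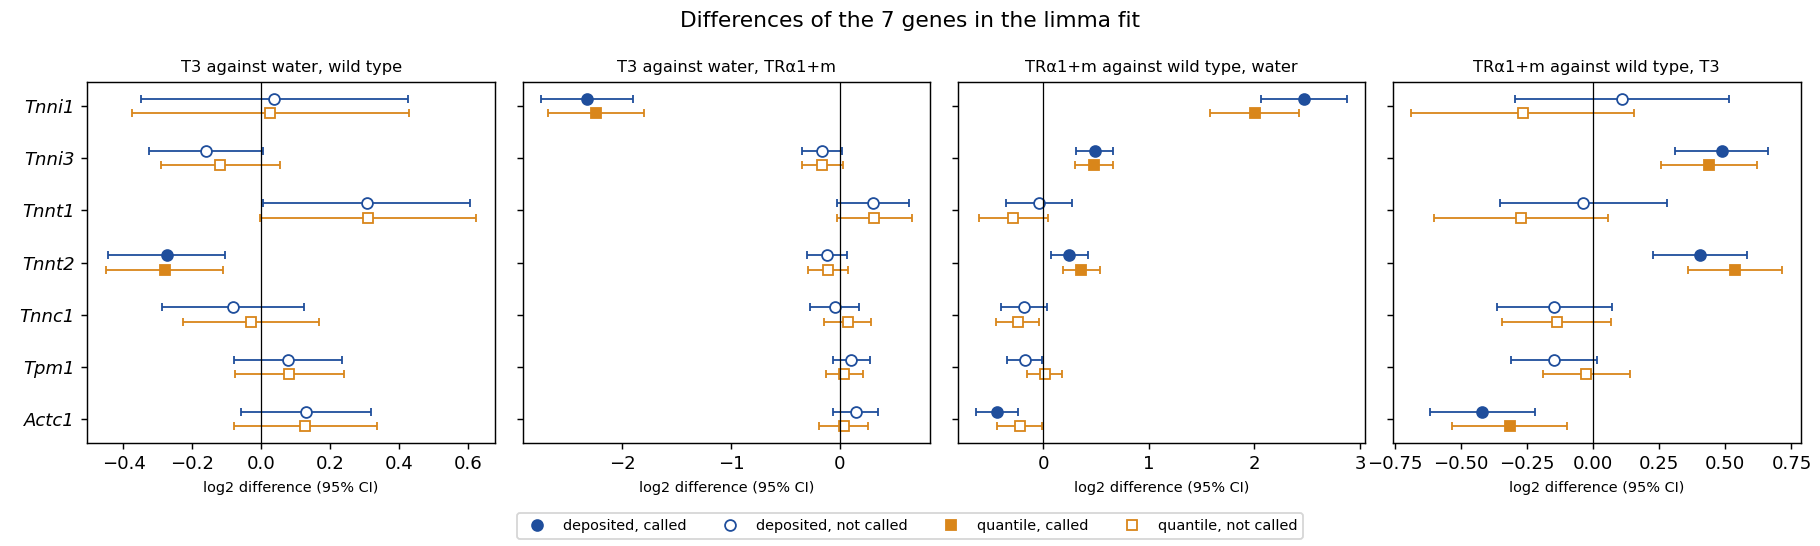
Log2 difference of each of the 7 genes with its 95% confidence interval, for T3 against water in each genotype and for TRα1+m against wild type with each drink, on deposited and on quantile-normalized values. Filled marks passed an adjusted p of 0.05. Tnni1 passed for T3 in TRα1+m (-2.32) and for genotype on water (2.47), and Tnnt2 alone passed for T3 in wild type (-0.27).

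Counted over the members, T3 changed 1 of the 7 genes in wild type, where 12.7% of all probe sets passed. In TRα1+m it changed 1 of the 7, where 15.2% of all passed. Genotype on water changed 4 of the 7 on deposited values against 54.6% of all probe sets, and 3 of the 7 after quantile normalization against 39.6%. On T3 it changed 3 of the 7 with both, against 50.9% and 35.7%. The shares of members are near those backgrounds for T3 and for genotype and are no result about the group.

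Hearts of treated TRα1+m mice were also set against untreated wild type, the comparison that asks where hormone brings the mutant. Tnni3 was brighter by 0.33 ± 0.08 (adjusted p = 0.00257; 0.32 after quantile normalization), although it was lower by 0.20 (-0.20, adjusted p = 0.101) with arrays centred on the gene median. Actc1 was lower, at -0.29 ± 0.10 (adjusted p = 0.014; -0.19 and adjusted p = 0.16 after quantile normalization). Tnni1 differed by 0.15 ± 0.20 (95% confidence interval -0.26 to 0.55). On either kind of values 2 of the 7 genes passed, where 55.1% (deposited) and 40.8% (quantile) of all probe sets passed, and after quantile normalization the second gene was Tnnt2 (0.25, adjusted p = 0.0216), which had -0.40 (adjusted p = 0.00207) with gene-median centring. Untreated TRα1+m against treated wild type gave calls for 5 of the 7 genes with both kinds of values, against 59.2% and 47.3% of all. Tnni1 (2.43), Tnni3 (0.65) and Tnnt2 (0.52) were brighter in the untreated mutants and Tpm1 (-0.26) and Actc1 (-0.57) dimmer, and after quantile normalization Tnnt1 (-0.59, adjusted p = 0.00381) passed in place of Tpm1 (-0.07), while Tnnt2 was -0.02 with centring on negative controls. Tnni3 did not pass with gene-median centring (0.18, adjusted p = 0.138) or with centring on negative controls (0.10, adjusted p = 0.343).

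**Figure D3:**
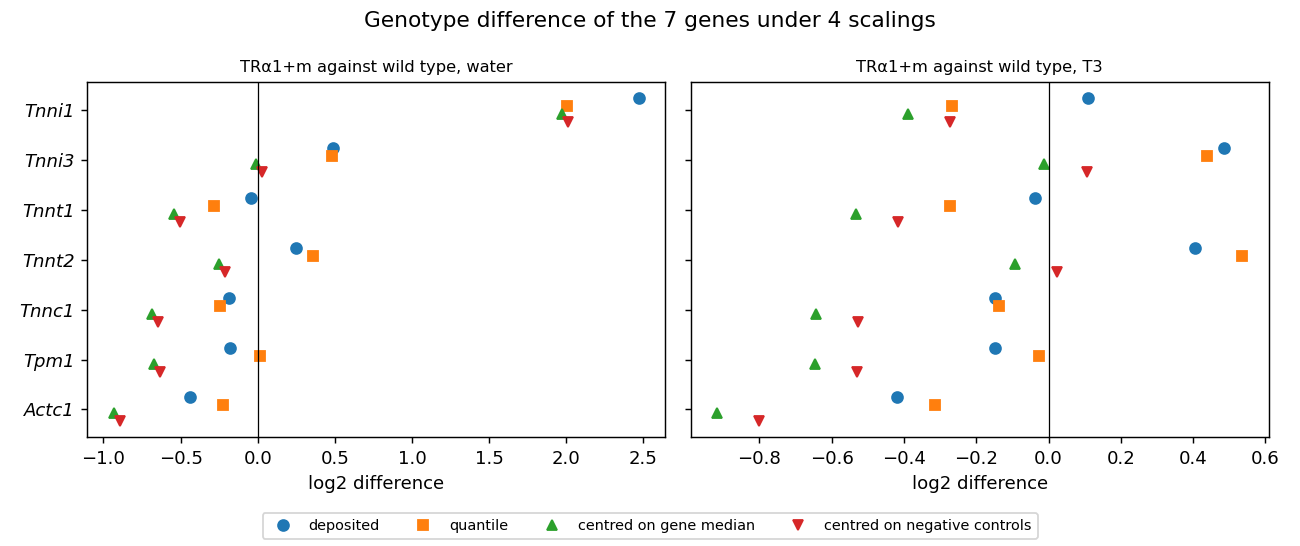
Log2 difference of TRα1+m against wild type for the 7 genes, on water and on T3, with deposited values, quantile normalization and centring of each array on its gene median or on its negative controls. Tnni3 and Tnnt2 were brighter in TRα1+m with deposited and quantile values, Tnni3 moved to -0.01 and Tnnt2 to -0.25 on water with gene-median centring, Actc1 was negative throughout, and Tnni1 on water was positive throughout.

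Slow skeletal against cardiac forms were compared within arrays, where changes between groups can be read but levels of the 2 genes cannot. The shift between genotypes differed between dim and bright probe sets, so it does not cancel in these differences, and the sizes between genotypes depend on the normalization. Tnni1 minus Tnni3 fell by 2.16 with T3 in TRα1+m (-2.16 ± 0.29, exact permutation test, two-sided, p = 0.00794, the smallest 5 against 5 allows; adjusted p = 0.0173 over 8 comparisons), with no overlap. It was higher in TRα1+m than in wild type on water by 1.98 ± 0.28 (exact permutation adjusted p = 0.0173), or 1.52 after quantile normalization. On T3 it was lower by 0.38 (-0.38 ± 0.15, exact permutation adjusted p = 0.0371), or -0.70 after quantile normalization, with Tnni1 at background in both groups. On deposited values that call was lost in 7 of 22 omissions of 1 array (wild-type T3 replicates 1, 3, 5 and 6 and TRα1+m T3 replicates 2, 4 and 5), with values from -0.44 to -0.28. In wild type T3 moved it by 0.20 ± 0.14 (exact permutation adjusted p = 0.232). The first 2 of these differences lay mostly in Tnni1. On deposited values the one between genotypes on T3 lay mostly in Tnni3 (0.49, against 0.11 for Tnni1). That split depended on the scaling: after quantile normalization Tnni3 had 0.44 and Tnni1 -0.27, and with gene-median centring Tnni3 had -0.01.

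Tnnt1 minus Tnnt2 moved with T3 in the same direction in both genotypes. It rose by 0.58 ± 0.15 in wild type (exact permutation adjusted p = 0.0173) and by 0.43 ± 0.11 in TRα1+m (exact permutation adjusted p = 0.0173, without overlap). Neither Tnnt1 alone nor, in TRα1+m, Tnnt2 alone passed its own test. In TRα1+m it was lower than in wild type by 0.29 on water (-0.29 ± 0.10, exact permutation adjusted p = 0.0242) and by 0.44 on T3 (-0.44 ± 0.16, exact permutation adjusted p = 0.0371), which after quantile normalization were -0.64 and -0.81. The call on T3 was lost on deposited values in 9 of 22 omissions of 1 array (wild-type T3 replicates 1, 3, 4, 5 and 6 and TRα1+m T3 replicates 1, 2, 4 and 5), with values from -0.55 to -0.35. The list mean of fast skeletal muscle genes was 5.65 on water and 6.12 on T3 in wild type and 5.85 and 6.21 in TRα1+m. In wild type Casq1 went from 8.81 to 11.19 and Atp2a1 from 6.12 to 7.82. Mylpf, Actn3, Pvalb and Tnnc2 were lower there on T3, and the remaining genes of the list rose by less. In TRα1+m Casq1 went from 8.91 to 10.95, but Atp2a1 only from 5.245 to 5.318. Myh1, Myh4 and Tnnc2 were lower on T3 in TRα1+m, and the remaining genes of the list rose by less than Casq1. The part of these genes in the difference was not tested.

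**Figure D4:**
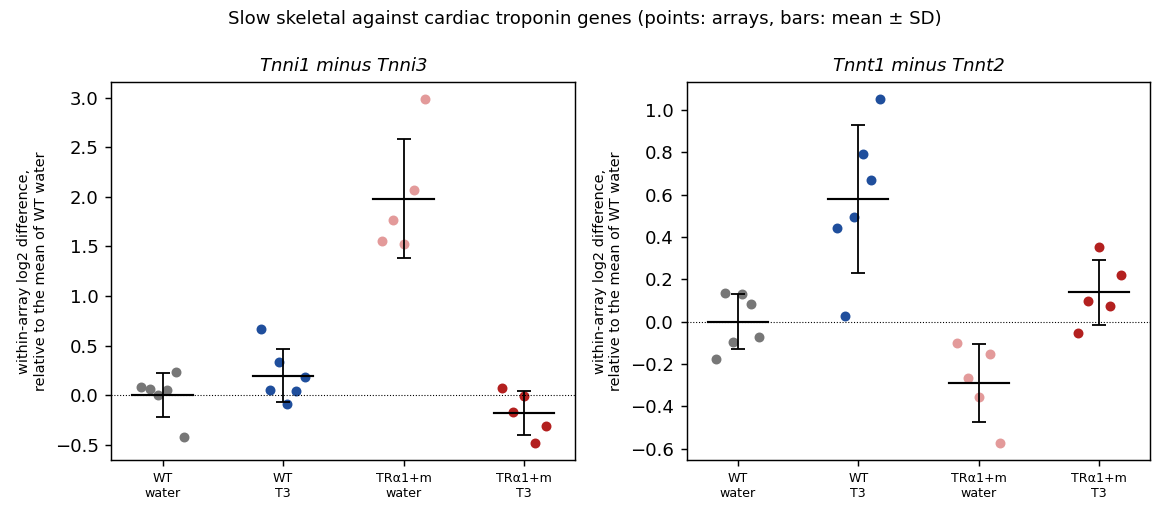
Within-array log2 difference of the slow skeletal and cardiac troponin I genes (left) and troponin T genes (right), relative to the mean of wild-type hearts on water, with mean and SD. Troponin I stands 1.98 higher in TRα1+m on water than in wild type on water, and troponin T rises with T3 by 0.58 in wild type and by 0.43 in TRα1+m.

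The other genes of the thin filament were described from a list of 30, of which 29 had a named probe set: fast skeletal troponins, other tropomyosins, the capping and length-setting proteins (tropomodulins, leiomodins, nebulin and its relatives) and actin turnover factors. T3 changed 10 of the 29 in wild type (6 higher, 4 lower), where 12.7% of all probe sets passed, with a median of 0.17 for the list and 0.01 for all tested probe sets. In TRα1+m it changed 15 of the 29 (10 higher, 5 lower), where 15.2% of all passed, with medians of 0.05 and -0.02. After quantile normalization the count was 12 in each genotype (9 higher and 3 lower in wild type, 10 higher and 2 lower in TRα1+m). The share of all probe sets called for T3 on those values is not given here, so these counts have no background beside them. No member of this list passed the interaction test in limma, which 0.275% of all probe sets passed. An unadjusted p below 0.05 was found for 3, with no share of all probe sets given for that threshold. Cfl1, the actin-severing cofilin of many cell types, rose by 0.89 ± 0.10 in wild type and 0.93 ± 0.11 in TRα1+m. Tpm3 rose by 0.83 and 0.90, Tpm4 by 0.94 and 1.06, Capza1, a barbed-end capping subunit, by 0.73 and 0.96, and Tmod3, a broadly expressed tropomodulin, by 0.80 and 0.78. The cardiac tropomodulin Tmod1 rose by 0.49 ± 0.10 and 0.55 ± 0.11. Fhod3, a sarcomeric actin organiser, fell by 0.48 (-0.48 ± 0.13) and by 0.46 (-0.46 ± 0.14), Svil, which links actin to membranes, by 0.39 (-0.39) and 0.31 (-0.31), and Tmod4 by 0.56 (-0.56) and 0.54 (-0.54). Lmod3, which lengthens thin filaments, rose in TRα1+m by 0.68 ± 0.11 and had 0.20 ± 0.10 (adjusted p = 0.254) in wild type. The fast troponin genes Tnni2 and Tnnt3 passed in TRα1+m (0.64 and 0.93) at levels near background, where Tnnt3 had a mean of 6.02.

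Cfl1, Tpm3, Tpm4, Capza1 and Tmod3 are expressed by non-muscle cells of the heart too, and marker lists of such cells were higher on T3. The fibroblast list mean went from 11.20 to 12.08 in wild type and from 11.56 to 12.24 in TRα1+m, the endothelial list from 11.99 to 12.43 and from 11.85 to 12.56, and the macrophage list from 9.84 to 11.06 and from 9.40 to 11.38. Their part in the rise of these 5 genes was not tested. The skeletal alpha actin gene Acta1, named after its values were seen, had differences of 1.13 ± 0.69 (adjusted p = 0.358) in wild type and 2.18 ± 0.75 (adjusted p = 0.0522) in TRα1+m, and passed neither.

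Between genotypes on water the list had 15 of 29 called on deposited values (11 higher and 4 lower in TRα1+m) and 11 after quantile normalization (6 higher and 5 lower), and the same counts were found on T3. Of all probe sets 54.6% and 39.6% passed on water and 50.9% and 35.7% on T3, so the shares of the list are near the background and no result about it. Lmod3 was lower in TRα1+m on water by 0.69 (-0.69; -0.80 after quantile normalization), Tmod1 by 0.46 (-0.46; -0.53) and Tmod3 by 0.47 (-0.47; -0.61). On deposited values Capza1 was higher in TRα1+m on water by 0.66, Pdlim5 by 0.56 and Tpm3 by 0.50. The median of all tested probe sets was itself higher there by 0.36, and relative to it these genes had 0.30, 0.20 and 0.145. With T3 in wild type, the 3 brightest genes of the list that did not pass were Pdlim5 (0.30), Capzb (0.29) and Nebl (-0.06).

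**Figure D5:**
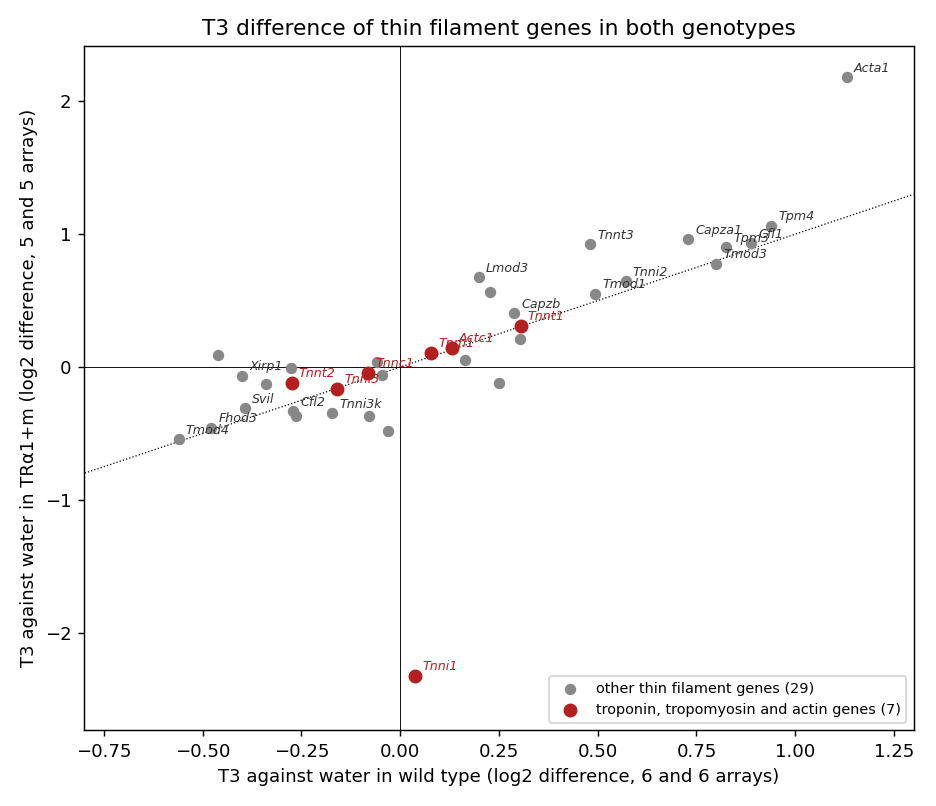
T3 difference of the 7 genes (red) and of the 29 other thin filament genes (grey) in TRα1+m against that in wild type, in log2 units, with a dotted line of equal differences; genes called in either genotype are named, as are all 7 and Acta1. Tnni1 lies alone at 0.04 in wild type and -2.32 in TRα1+m, and Cfl1, Tpm3 and Tpm4 lie near the line.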

How the data were processed

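Whole-heart RNA (Qiagen RNeasy Fibrous Tissue kit) from 22 mice was labelled with the WT Pico kit and hybridised to Clariom S Mouse arrays, 1 per mouse. The authors processed the scans by RMA in Transcriptome Analysis Console 4.0.1 and deposited log2 intensities. Whether all arrays were normalized together, and the genome build, are not given in the sources used here. No deposited column was left unused (0 columns). Groups came from the sample labels.

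From the deposited log2 values, limma 3.58.1 (R 4.3.3) was fitted with 4 group means over all 22 arrays (18 residual degrees of freedom), on the 21092 gene probe sets with a mean above 4, with Benjamini-Hochberg adjustment over all of them and a call at an adjusted p below 0.05. The study's own filter was at the same log value. Quantile normalization (limma) was run beside every comparison between genotypes, the within-array ones included. Within-array differences were tested by exact permutation, adjusted over 8 comparisons. The number of arrays limits the precision of these values.

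All 7 members are named in every comparison. From the list of other thin filament genes the called ones could be named, those with the smallest adjusted p first, with the 3 brightest not called, and genes most like a member were sought only where the group means of the member spanned over 1 log2 unit. The members, lists and tests were chosen with earlier results of these data known. Alternatives were other scalings, filters, variance models, a replicate block, a minimum log2 difference of 1 and leaving out arrays. Nothing besides the match of 22 arrays to the mice counted in the design says the samples are separate animals, and p-values measure the spread between these samples.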

Additional observations from a re-analysis of the deposited data

Results flagged for a closer look

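Among 28 groups of values (7 genes in 4 groups), 5 had a heart that stood apart from the rest of its group by Dixon's criterion, which chance meets in about 1 of 20 groups. Tnni3 was 18.271 in TRα1+m water replicate 1, with the nearest heart at 18.098. In TRα1+m T3 replicate 1, Tnnt2 was 19.050 (nearest 19.277) and Tpm1 19.213 (nearest 19.316). Actc1 was 19.440 in wild-type T3 replicate 2 (nearest 19.325) and 18.622 in TRα1+m water replicate 3 (nearest 18.767).

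The T3 effect on Tnni1 differed between the genotypes by -2.361 ± 0.277 log2 units (limma interaction term, adjusted p = 1.8e-04), on a signal within the range of the negative controls.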

How the results depend on the processing

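The Tnni1 calls for T3 in TRα1+m, genotype on water, untreated TRα1+m against treated wild type and the interaction held under every alternative in which it was tested, with T3 in TRα1+m between -2.45 and -2.08. With a mean above 6 required, Tnni1 was no longer tested. This left 0 members called for T3 in TRα1+m and 0 for the interaction, where 3434 and 84 of 13144 probe sets passed. Centring on the gene median reversed Tnni3 between genotypes (-0.009 on water, -0.012 on T3, -0.200 for treated mutants against untreated controls) and Tnnt2 (-0.251, -0.093 and -0.395). In the last comparison 4 members were called, where 9475 of all 21092 probe sets passed. Centring on negative controls gave -0.211 for Tnnt2 on water and -0.025 for untreated TRα1+m against treated wild type. For T3 in wild type 0 members were then called, where 2785 of all 21092 probe sets passed. For T3 in TRα1+m 4 members were called, where 3959 passed. The cause was not tested.

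In this paragraph, numbers in parentheses are the calls among all 21092 probe sets. The count for T3 in wild type was 2 with trended, robust variances (2950) and 2 without moderation (2776). It was 0 with the replicate block (2715), 0 with only the 2 groups fitted (2243) and 0 with a minimum log2 difference of 1 (441). That minimum also left 1 between genotypes on water (2529) and 0 on T3 (2142). It left 0 between treated mutants and untreated wild type (2726), and 1 between untreated mutants and treated wild type (3521). Without moderation 3 were called for T3 in TRα1+m (3279). Treated TRα1+m against untreated wild type had 4 with trended variances (11664), 4 without moderation (11433) and 1 with its groups alone (11104). Leaving out 1 array gave 0 to 1 members for T3 in wild type and 2 to 4 between treated mutants and untreated controls, with 4 without TRα1+m T3 replicate 1.

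For troponin I within arrays, T3 in TRα1+m ran from -2.274 to -1.910 and genotype on T3 from -0.440 to -0.284, where 7 of 22 omissions lost the call. For troponin T, genotype on T3 ran from -0.552 to -0.347, and 9 of 22 lost it. Without both wild-type water replicate 3 and wild-type T3 replicate 6, calls were lost for troponin I between genotypes on T3 (-0.380), troponin T with T3 in wild type (0.466) and troponin T between genotypes on T3 (-0.347). Replicate numbers are shared across groups, and whether they pair the samples was not settled. Correlations of same-numbered deviations ran from -0.266 to 0.335, and 7 of 22 arrays correlated best with their own number. No chance level was computed for that count. With the replicate block, Tnnt2 with T3 in wild type was -0.275 (adjusted p = 0.0529). Over all members, 1731 of 1827 values kept their call and had no change of sign involving a called value. Changes of sign between values that were not called were not counted.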
